A study of Mus musculus with 10 samples.

Results

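The 8 genes described here form the axis that runs from interferon gamma (IFN-γ) to the CXCR3 chemokines: the cytokine gene Ifng, its receptor chains Ifngr1 and Ifngr2, the transcription factor gene Irf1, the chemokine genes Cxcl9, Cxcl10 and Cxcl11, and their receptor gene Cxcr3. They were taken by symbol from 33585 genes, and each matched 1 Ensembl identifier (in the order above ENSMUSG00000055170, ENSMUSG00000020009, ENSMUSG00000022965, ENSMUSG00000018899, ENSMUSG00000029417, ENSMUSG00000034855, ENSMUSG00000060183 and ENSMUSG00000050232). Bulk RNA-seq was made from tumor-draining lymph nodes (TDLNs, the inguinal nodes) of female BALB/c mice, 6 weeks old, bearing tumors of 4T1, a mouse mammary carcinoma line, in the mammary fat pad. All mice received microwave ablation (MWA) of the tumor on day 10, and nodes were collected on day 15. The MWA group (n = 5) received PBS and the MWA+2DG group (n = 5) received 2-deoxy-D-glucose, a glucose analogue that blocks glycolysis, at 500 mg/kg into the peritoneum every other day. There was no untreated or non-ablated group among these libraries. Levels are FPKM, fragments per kilobase of transcript and per 1000000 mapped fragments, as the authors deposited them.

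IFN-γ is made mainly by activated T cells and NK cells. It binds a receptor built from the products of Ifngr1 and Ifngr2, which signals through the kinases JAK1 and JAK2 and switches on Irf1 and a wide set of target genes. CXCL9, CXCL10 and CXCL11 are secreted by macrophages, dendritic cells and stromal cells that respond to interferons, and they attract activated T cells and NK cells that carry CXCR3. CXCL9 depends largely on IFN-γ, whereas CXCL10 and CXCL11 also respond to type I interferons.

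The sequences just before the starts of Cxcl9, Cxcl10 and Irf1 are shown as examples of the members that were highest in the same 2 libraries. They are the 250 bases before the RefSeq start in build GRCm38.p6, read 5′ to 3′ on the strand of the gene, with motif matches in capitals. The motifs searched on both strands were the interferon gamma-activated site TTCNNNGAA, the interferon-stimulated response element in the short form GAAANNGAAA, and the NF-kB site, and overlapping NF-kB matches were merged in the capitals. Promoters were given for 7 of the 8 genes, and Cxcl11 had no entry. Of the starts listed for Irf1, the first is shown.
Cxcl9, chr5:92328080-92328329, minus strand: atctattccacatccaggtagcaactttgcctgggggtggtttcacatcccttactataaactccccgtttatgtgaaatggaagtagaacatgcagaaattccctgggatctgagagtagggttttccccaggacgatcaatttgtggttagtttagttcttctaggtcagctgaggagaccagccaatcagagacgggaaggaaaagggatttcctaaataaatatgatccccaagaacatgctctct
Cxcl10, chr5:92348890-92349139, minus strand: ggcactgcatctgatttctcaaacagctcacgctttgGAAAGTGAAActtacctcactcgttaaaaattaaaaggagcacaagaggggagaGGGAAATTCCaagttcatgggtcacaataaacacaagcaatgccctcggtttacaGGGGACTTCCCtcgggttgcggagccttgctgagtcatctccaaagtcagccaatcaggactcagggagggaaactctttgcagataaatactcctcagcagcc
Irf1, chr11:53769764-53770013, plus strand: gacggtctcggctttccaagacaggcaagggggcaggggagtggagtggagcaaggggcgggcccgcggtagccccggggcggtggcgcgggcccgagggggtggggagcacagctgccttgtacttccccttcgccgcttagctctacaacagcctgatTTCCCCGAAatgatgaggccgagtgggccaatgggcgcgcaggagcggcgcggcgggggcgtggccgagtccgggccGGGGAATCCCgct

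The Irf1 window held 1 interferon gamma-activated site, TTCCCCGAA, from 90 to 82 bases before the start, and 1 NF-kB match. The Cxcl10 window held 1 response element match, GAAAGTGAAA, from 213 to 204 bases before the start, and 3 NF-kB matches of which 2 overlapped. No match to the forms searched was in the Cxcl9 window. The NF-kB form was strict, GGGRNNYYCC on either strand (R for A or G, Y for C or T), and near variants were not counted. Of the windows not shown, that of Ifng held 1 interferon gamma-activated site, TTCAGAGAA, from 249 to 241 bases before the start. The Ifngr2 window held 1 NF-kB match, and those of Ifngr1 and Cxcr3 held no match. Among 27025 promoters of the same length, 7.18% held the interferon gamma-activated site, 3.04% the response element and 7.01% the NF-kB site. These matches describe the letters only, and BALB/c sequence may differ from this C57BL/6J reference.

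A pair of facts about the libraries bears on all that follows. First, MWA replicate 4 and MWA+2DG replicate 5 stood apart from the other 8 in the ligands, Ifng and Irf1, and the group difference of each member is given with and without them. Second, replicates 1 and 2 of both groups separated from replicates 3 to 5 on the first principal component, which held 36.4% of the variance, and each of these sets held both treatments in equal number. What the sets stand for is not given in the labels. Alb, of the liver list, was at most 0.0486 FPKM in replicates 1 and 2 of both groups. In replicates 3 to 5 it was between 35.1 and 102 FPKM, which includes both libraries that stood apart. Apoa1, Apoa2 and Ttr of that list parted the sets in the same way, and Serpina1a did not. The source of these transcripts was not tested. The T cell list (Cd3d, Cd3e, Cd3g, Cd4, Cd8a and Cd8b1) summed to 180 to 290 FPKM in the MWA group and 210 to 269 FPKM in the MWA+2DG group, and the B cell list to 1235 to 1439 FPKM and 1077 to 1292 FPKM, so the defining lymphocyte genes of a lymph node were present in all 10 libraries.

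Members of the axis differed widely in level. The median over the 10 libraries was 50.4 FPKM for Irf1, 45.1 for Ifngr1, 20.2 for Ifngr2, 13.3 for Cxcl9, 9.34 for Cxcr3, 3.68 for Cxcl10, 0.492 for Ifng and 0.241 for Cxcl11. Of the neighbours in this order, Ifngr1 and Ifngr2 did not overlap, and all the others overlapped in their ranges, so their order is not set by the medians alone. Compared within each library, Cxcl10 was above Ifng in all 10. The coefficient of variation over the 10 libraries ran from 7.48% for Ifngr1 and 14.0% for Ifngr2 to 150% for Cxcl9, 174% for Cxcl10 and 204% for Cxcl11. Over the other 8 libraries it was 37.4% for Cxcl9, 32.5% for Cxcl10 and 48.4% for Cxcl11. Over all 10 libraries the receptor chains were thus the least variable members and the ligands the most variable. Over the other 8 the receptor chains were again lowest, at 6.83% and 7.48%, whereas Ifng, at 35.5%, lay above Cxcl10.

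**Figure D1:**
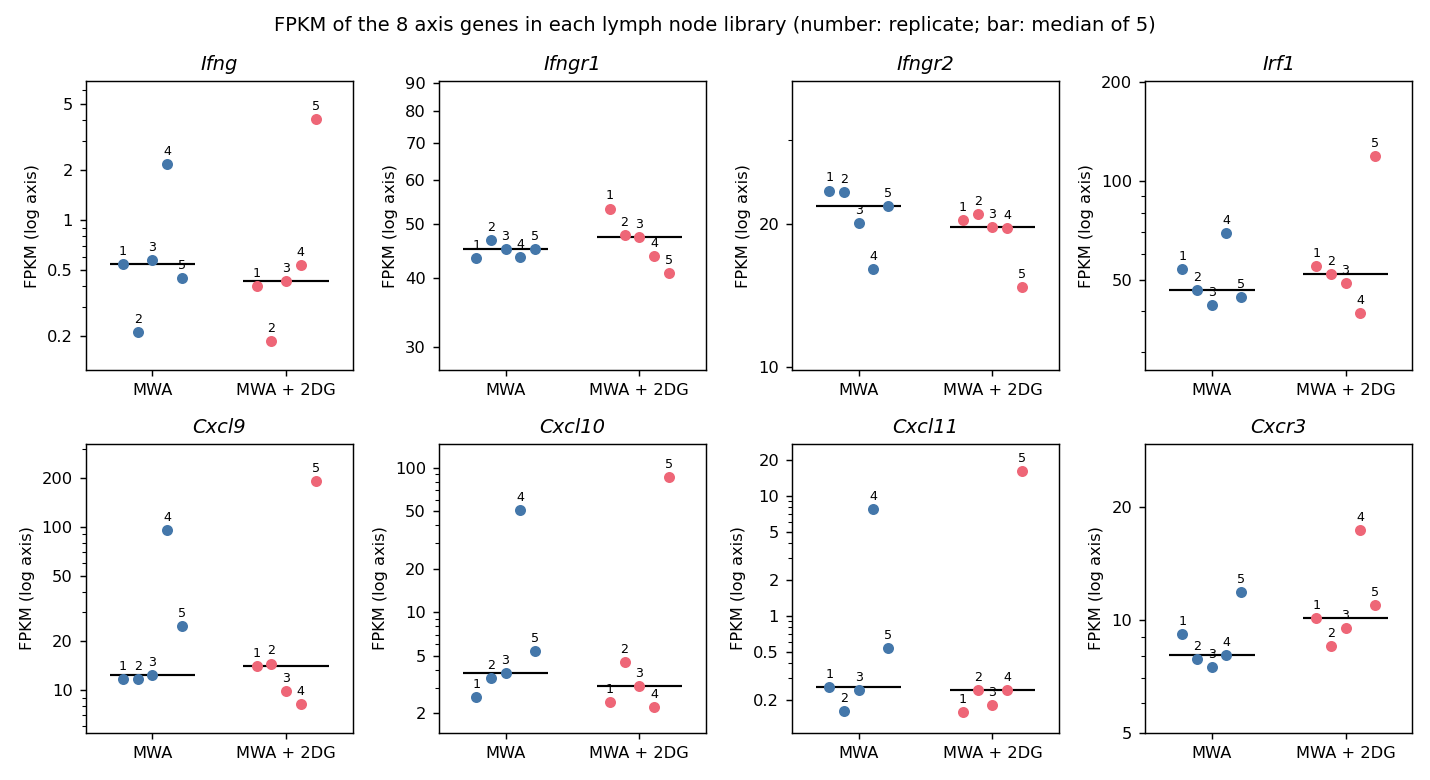
FPKM of each of the 8 axis genes (log axis) in every library, with MWA in blue, MWA+2DG in red, replicate numbers beside the points and the group median as a bar. MWA replicate 4 and MWA+2DG replicate 5 are the highest 2 libraries for Ifng, Irf1, Cxcl9, Cxcl10 and Cxcl11 and the lowest 2 for Ifngr2, while the highest Cxcr3 is in MWA+2DG replicate 4.

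The main comparison asked whether the axis differed between the MWA+2DG and MWA groups 5 days after ablation. No member passed the test. Of the 8 genes, 7 had a mean of at least 1 FPKM and entered the fit across genes. None of these 7 was called by limma at an adjusted p below 0.05, and none had an unadjusted P below 0.05. The background was the same: 0 of 13334 genes (0%) were called at the adjusted threshold, with 567 genes at an unadjusted P below 0.05. By the rule that follows the study, an unadjusted P below 0.05 and a log2 difference beyond 0.25, 376 of 13334 genes (2.82%) were called, and 0 of the 7 members. Relative to the MWA group, 127 of the 376 were higher with 2DG and the other 249 lower. Without both libraries that stood apart, that split was 203 higher and 155 lower, and after rescaling each library to the same total it was 440 higher and 205 lower. The groups did not overlap for 107 of 13334 genes (0.802%), and they overlapped for all 8 members. Because these are whole nodes, fewer cells of a type and less RNA per cell cannot be told apart in any of these values.

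Ifng, the cytokine itself, was low in most nodes. It was at 0.548, 0.213, 0.579, 2.16 and 0.446 FPKM in MWA replicates 1 to 5 and at 0.399, 0.188, 0.427, 0.539 and 4.02 FPKM in MWA+2DG replicates 1 to 5. One library of each group was above 2 FPKM and the other 8 ended at 0.579 FPKM, and the groups overlapped. The difference, MWA+2DG minus MWA on the log2(FPKM + 1) scale, was 0.09 (exact permutation test, two-sided, p = 0.865), where 0.00794 was the smallest p that 5 against 5 allows. Without both high libraries it was -0.06 (exact permutation p = 0.514, with 0.0286 as the smallest possible). Ifng did not reach a mean of 1 FPKM and entered the fit only without the filter, where its 95% interval ran from -0.87 to 1.04.

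The receptor chains varied little. Ifngr1, which encodes the ligand-binding chain, was at 43.4, 46.7, 45.1, 43.5 and 45.0 FPKM in MWA replicates 1 to 5 and at 53.4, 47.8, 47.3, 43.7 and 40.8 FPKM in MWA+2DG replicates 1 to 5. Both the highest and the lowest library were of the MWA+2DG group. The log2 difference was 0.05 ± 0.08 (SE, n = 5 per group, limma 95% interval -0.12 to 0.22, exact permutation p = 0.5) and 0.09 without both high libraries (exact permutation p = 0.229). Among the 7 genes tested Ifngr1 had the narrowest interval, which leaves out log2 differences of 0.25 or more in either direction.

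Ifngr2, which encodes the signalling chain, was at 23.5, 23.4, 20.04, 16.1 and 21.8 FPKM in MWA and at 20.3, 21.0, 19.7, 19.6 and 14.8 FPKM in MWA+2DG. The lowest value of each group was in the library with the highest Ifng of that group, the reverse of the ligands. The log2 difference was -0.13 ± 0.12 (SE, n = 5 per group, limma 95% interval -0.40 to 0.14, exact permutation p = 0.381). It was -0.13 again without both libraries (exact permutation p = 0.0857).

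Irf1, a transcription factor gene induced by IFN-γ, was at 53.8, 46.5, 41.9, 69.6 and 44.1 FPKM in MWA and at 55.1, 51.9, 48.8, 39.6 and 119 FPKM in MWA+2DG. Its highest library in each group was again MWA replicate 4 and MWA+2DG replicate 5, and the other 8 lay between 39.6 and 55.1 FPKM. The log2 difference was 0.20 ± 0.26 (SE, n = 5 per group, limma 95% interval -0.37 to 0.78, exact permutation p = 0.595) and 0.06 without both libraries (exact permutation p = 0.6).

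Cxcl9 was the most abundant of the 3 ligand genes. It was at 11.7, 11.7, 12.4, 95.9 and 24.7 FPKM in MWA replicates 1 to 5 and at 14.1, 14.6, 9.85, 8.21 and 190 FPKM in MWA+2DG replicates 1 to 5. MWA+2DG replicate 5 held the highest value and MWA replicate 4 the next, followed by MWA replicate 5, and the other 7 libraries lay at or below 14.6 FPKM. The group means were 31.3 ± 36.6 FPKM (SD, n = 5) and 47.4 ± 79.8 FPKM (SD, n = 5), in which the SD exceeded the mean in both groups. On the log2 scale the difference was -0.05 ± 0.85 (SE, n = 5 per group, limma 95% interval -1.92 to 1.82, exact permutation p = 0.921). The mean FPKM was higher and the mean log2 level lower in the MWA+2DG group, so the sign depends on the scale. Without both libraries the groups were at 15.1 ± 6.38 FPKM and 11.7 ± 3.14 FPKM (SD, n = 4 each), and the log2 difference was -0.31 (limma 95% interval -0.90 to 0.29, exact permutation p = 0.4).

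Cxcl10 was at 2.61, 3.54, 3.83, 51.1 and 5.44 FPKM in MWA and at 2.38, 4.53, 3.10, 2.20 and 86.4 FPKM in MWA+2DG. The same 2 libraries were highest, and the next was MWA replicate 5. The log2 difference was -0.06 ± 0.99 (SE, n = 5 per group, limma 95% interval -2.24 to 2.12, exact permutation p = 0.913). Without both libraries it was -0.26 (limma 95% interval -0.74 to 0.22, exact permutation p = 0.343).

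Cxcl11 was near the lower end of the scale outside those libraries. It was at 0.254, 0.160, 0.240, 7.79 and 0.536 FPKM in MWA and at 0.158, 0.242, 0.181, 0.238 and 15.9 FPKM in MWA+2DG. Its mean passed 1 FPKM only through MWA replicate 4 and MWA+2DG replicate 5, so it left the limma fit without them. The log2 difference was 0.11 ± 0.82 (SE, n = 5 per group, limma 95% interval -1.69 to 1.91, exact permutation p = 0.905) and -0.10 without both libraries (exact permutation p = 0.371). RefSeq lists Cxcl11 as a transcribed pseudogene in the C57BL/6J reference, and Art3, a gene on the opposite strand, overlaps both Cxcl10 and Cxcl11. Art3 was at 0.183 to 1.16 FPKM over the 10 libraries, and no source used here states whether the authors' counting used strand.

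Cxcr3, the receptor gene of the ligands and a marker of effector and memory T cells, did not follow them. It was at 9.15, 7.87, 7.48, 8.06 and 11.8 FPKM in MWA and at 10.1, 8.52, 9.53, 17.4 and 10.9 FPKM in MWA+2DG. The library of highest Cxcr3, MWA+2DG replicate 4, was the library of lowest Cxcl9 and Cxcl10, and both libraries with high ligands had Cxcr3 within the range of the other nodes. Of all members tested, Cxcr3 had the smallest P. The log2 difference was 0.29 ± 0.18 (SE, n = 5 per group, limma 95% interval -0.10 to 0.68, exact permutation p = 0.167, adjusted p = 0.995 in limma). It was 0.26 without both libraries of high ligands (exact permutation p = 0.371). It was 0.14 without MWA+2DG replicate 4 (exact permutation p = 0.333) and 0.39 without MWA replicate 5 (exact permutation p = 0.0476), so 1 library decided the side of 0.05 on which the unadjusted p fell. Cd8a, a marker of cytotoxic T cells, had a log2 difference of 0.28 (exact permutation p = 0.0556, adjusted p = 0.995 in limma), and its part in the Cxcr3 values was not tested.

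**Figure D2:**
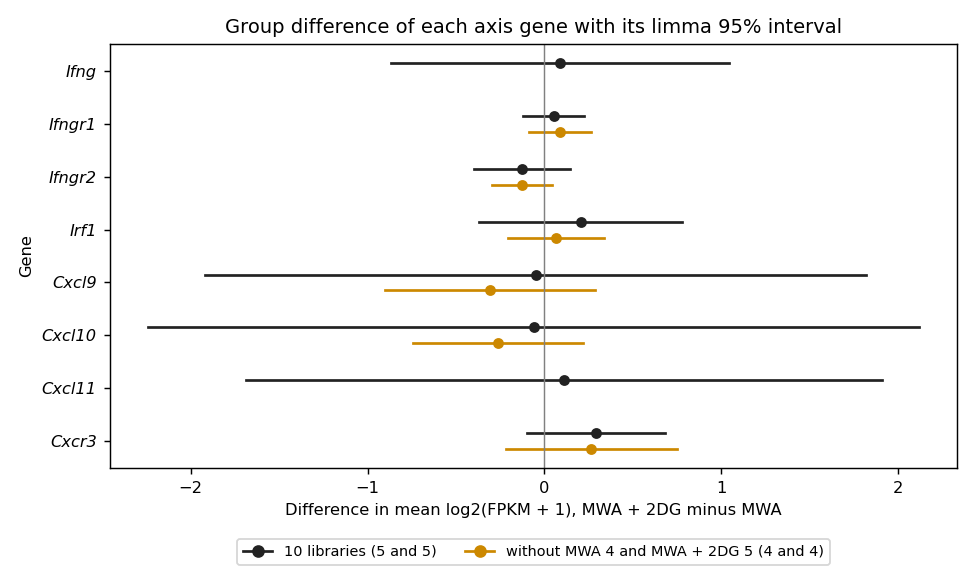
Difference in mean log2(FPKM + 1), MWA+2DG minus MWA, for each axis gene, with the limma 95% interval as a line, for all 10 libraries in black and without both libraries of high ligands in amber. Every interval spans 0, and those of Cxcl9 and Cxcl10 narrow from -1.92 to 1.82 and -2.24 to 2.12 to -0.90 to 0.29 and -0.74 to 0.22. Ifng (fitted without the filter) and Cxcl11 have no amber line because their mean fell below 1 FPKM.

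Whether the ligands followed Ifng from node to node was the second question. Because the 10 libraries fell into a cluster of 2 and a cluster of 8, no coefficient between Ifng and the ligands over all 10 is given. Ifng was at 2.16 and 4.02 FPKM in the 2 libraries, and their Cxcl9 (95.9 and 190 FPKM), Cxcl10 (51.1 and 86.4 FPKM) and Cxcl11 (7.79 and 15.9 FPKM) kept the same order. Among the other 8 nodes the ligands did not follow Ifng detectably. Over these 8, the Pearson r of log2(FPKM + 1) was -0.18 for Cxcl9 (exact permutation p = 0.666, Spearman's rho = -0.33, exact permutation p = 0.428). It was -0.37 for Cxcl10 (exact permutation p = 0.358, rho = -0.19, p = 0.665) and 0.23 for Cxcl11 (exact permutation p = 0.59, rho = 0.38, p = 0.36). The adjusted p of r over the 28 pairs of members was 0.777 for each of the 3.

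Within the 8 nodes Ifng spanned only 0.188 to 0.579 FPKM, so the range over which a relation could be seen was narrow. Leaving out the 2 of the 8 farthest from the median of Ifng, MWA replicate 2 and MWA+2DG replicate 2, gave r of -0.36 for Cxcl9, -0.07 for Cxcl10 and 0.02 for Cxcl11 over 6 libraries. The set of replicates 3 to 5 held 4 of the 8 libraries and the set of replicates 1 and 2 held the other 4, too few for a coefficient within a set. MWA replicate 5 had the highest Cxcl9, Cxcl10 and Cxcl11 of the 8 nodes with Ifng at 0.446 FPKM, close to the median of 0.437 FPKM.

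Among the ligands themselves the Pearson coefficients were between 0.65 and 0.76 in these 8 nodes. Cxcl9 and Cxcl10 had r = 0.76 (exact permutation p = 0.0208, adjusted p = 0.583 over 28 pairs, rho = 0.74, p = 0.0458). Cxcl9 and Cxcl11 had r = 0.75 (exact permutation p = 0.076, rho = 0.33, p = 0.428), and Cxcl10 and Cxcl11 r = 0.65 (exact permutation p = 0.0612, rho = 0.55, p = 0.171). None of the 28 pairs passed after adjustment, by r or by rho, and 1 pair by r and 2 by rho had an unadjusted p below 0.05. The other pair by rho was Ifng with Ifngr1, at -0.74 (exact permutation p = 0.0458, adjusted p = 0.642).

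**Figure D3:**
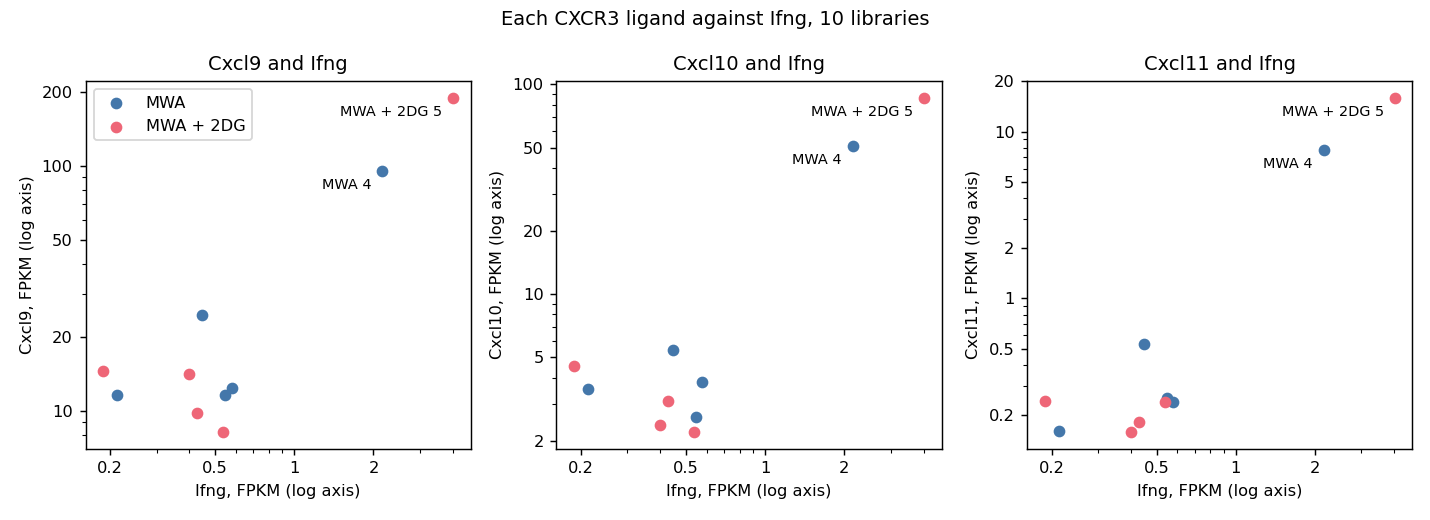
Each ligand (y axis, FPKM, log axis) against Ifng (x axis, FPKM, log axis), 1 point per library, with MWA in blue and MWA+2DG in red. MWA replicate 4 and MWA+2DG replicate 5 lie far to the upper right, with Ifng at 2.16 and 4.02 FPKM, and the other 8 points form a cloud between 0.188 and 0.579 FPKM of Ifng.

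The balance of the ligands also shifted in the 2 libraries. Cxcl9 was 1.88 times Cxcl10 in MWA replicate 4 and 2.20 times in MWA+2DG replicate 5, and between 3.18 and 5.93 times in the other 8. The ratio of Cxcl9 to Cxcl11 was 12.3 and 11.9 in those libraries and between 34.5 and 89.3 in the other 8. Cxcl10 and Cxcl11 thus stood higher relative to Cxcl9 in both. These ratios are of FPKM, which is per length, and no test was made because the libraries were noticed for their ligand levels.

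The rest of the pathway was described by 62 listed genes outside the axis, of which 57 were tested. None passed at an adjusted p below 0.05 in limma. By the unadjusted rule, 1 was higher and 1 lower, against 2.82% of all genes. The median log2 difference of the 57 was 0.15, with 48 above 0, beside 0.01 and 52.6% over all genes tested. Without both libraries the median of 55 genes was 0.06 with 35 above 0, beside 0.02 and 56.1% over all genes. By the unadjusted rule 3 of these 55 were called, beside 358 of 13343 genes (2.68%).

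The genes called by that rule with all libraries, a share of the pathway near that of all genes, were Stat4 and Il18. The count of 2 fell to 0 without MWA+2DG replicate 1, and to 1 after rescaling and without MWA replicate 2 or 5 or MWA+2DG replicate 2, 3 or 5. Stat4, the transcription factor that carries interleukin-12 signals to the Ifng gene, was higher in the MWA+2DG group, at 11.3, 9.35, 9.33, 10.7 and 9.12 FPKM in MWA and 14.5, 11.2, 11.1, 12.1 and 13.5 FPKM in MWA+2DG (log2 difference 0.29 ± 0.09 (SE), exact permutation p = 0.0238, adjusted p = 0.995 in limma). The groups overlapped only in that MWA replicate 1 lay above MWA+2DG replicates 2 and 3. All 6 genes of the T cell list also had a log2 difference above 0, with a median of 0.19, and Cd8a passed the unadjusted rule, and their part in the Stat4 values was not tested. Il18, a cytokine that induces IFN-γ together with interleukin-12, was lower, at 11.3, 13.1, 13.4, 10.5 and 19.1 FPKM in MWA and 9.61, 9.74, 10.4, 12.4 and 8.94 FPKM in MWA+2DG (log2 difference -0.35 ± 0.14 (SE), exact permutation p = 0.0476, adjusted p = 0.995 in limma). Neither passed the adjusted threshold, and without both high libraries their log2 differences were 0.29 (exact permutation p = 0.0857) and -0.38 (exact permutation p = 0.0571).

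Other upstream genes did not pass either rule. Among the inducers and their receptors, 6 of 9 were tested, and after Il18 the smallest limma P were those of Il18r1, a chain of the interleukin-18 receptor (log2 difference 0.26, exact permutation p = 0.0952), and Il12a, a subunit of interleukin-12 (0.13, exact permutation p = 0.333). Among the 5 transcription factors of Ifng, Runx3 had a log2 difference of 0.16 (exact permutation p = 0.468) and Tbx21, which encodes T-bet, 0.12 (exact permutation p = 0.762). Il12rb1, a chain of the interleukin-12 receptor, was at 3.19 FPKM in MWA replicate 4, 6.88 FPKM in MWA+2DG replicate 5 and at most 1.92 FPKM elsewhere.

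Of the 7 genes of IFN-γ signalling and feedback, none passed the unadjusted rule, and the 3 of smallest limma P were Jak2 (log2 difference 0.15, exact permutation p = 0.135), Socs3 (0.21, p = 0.444) and Jak1 (0.07, p = 0.563). Jak1 and Jak2, the receptor kinases, lay between 63.0 and 98.5 FPKM and between 17.8 and 26.8 FPKM. Socs1, the feedback inhibitor of the receptor kinases, was at 14.5 and 31.2 FPKM in MWA replicate 4 and MWA+2DG replicate 5 and between 6.64 and 10.1 FPKM elsewhere. Socs1 was therefore highest in the same libraries as the ligands, while the kinases were not.

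Among the 26 IFN-γ target genes, 24 were tested, 0 were called in either direction by the unadjusted rule, and the median log2 difference was 0.11 with all libraries and 0.02 without both. The 3 of smallest limma P were H2-Ab1, an MHC class II gene (log2 difference -0.16, exact permutation p = 0.246), Nlrc5, the transactivator of MHC class I (0.36, p = 0.413), and Ciita, the transactivator of MHC class II (-0.12, p = 0.325). Nlrc5 passed the unadjusted rule without both libraries (log2 difference 0.26, exact permutation p = 0.0571, adjusted p = 0.852 in limma).

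In 15 of these 24 targets MWA replicate 4 and MWA+2DG replicate 5 were the highest 2 libraries, beside 616 of 13334 genes tested (4.62%). This count is a description, since the libraries were noticed for their ligand levels. Batf2, which is among the 15, was at most 0.832 FPKM elsewhere and passed the filter only through these libraries. The guanylate-binding protein and immunity-related GTPase genes, which act against intracellular pathogens, were all among the 15. Gbp2 was at 55.6 and 125 FPKM in the 2 libraries and at most 26.8 FPKM elsewhere, and Irgm1 at 50.0 and 99.0 FPKM and at most 19.8 FPKM elsewhere. Cd274, which encodes PD-L1, was at 13.1 and 25.5 FPKM and at most 8.17 FPKM elsewhere.

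Antigen presentation genes of the same list did not all share this. H2-Ab1 was at 336 and 389 FPKM in the 2 libraries and between 343 and 542 FPKM in the other 8, and Ciita at 46.3 and 36.2 FPKM against 36.5 to 51.8 FPKM. Psmb8, an immunoproteasome subunit, was at 98.5 and 140 FPKM against 89.5 to 126 FPKM. Tap1, the peptide transporter, was at 75.1 and 136 FPKM and at most 61.1 FPKM elsewhere. Class I loading genes were thus highest in both libraries in the case of Tap1 and Tapbp, whereas H2-Aa, H2-Ab1 and Ciita lay within the range of the other nodes or just below it.

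The 12 type I interferon target genes, which answer mainly to interferon alpha and beta, gave no group call either. All 12 were tested, 0 were called in either direction by the unadjusted rule, and the median log2 difference was 0.25, or 0.15 without both libraries. The 3 of smallest limma P were Ifit2 (log2 difference 0.49, exact permutation p = 0.468), Oas2 (0.48, p = 0.643) and Ifit1 (0.38, p = 0.762), which encode inhibitors of viral translation and a sensor of double-stranded RNA. In 11 of the 12, MWA replicate 4 and MWA+2DG replicate 5 were the highest 2 libraries, beside 616 of 13334 genes tested (4.62%). That count too is a description, since these libraries were noticed for their ligand levels. Rsad2, which is among the 11, was at most 0.769 FPKM elsewhere and passed the filter only through them. Isg15, a ubiquitin-like protein gene, was at 134 and 323 FPKM in the 2 libraries and between 9.49 and 47.2 FPKM in the other 8. Irf7, the transcription factor that amplifies type I interferon, was at 134 and 359 FPKM and between 15.5 and 74.4 FPKM in the other 8. The exception was Oas1a, which was between 3.83 and 11.2 FPKM in replicates 1 and 2 of both groups and at or below 0.460 FPKM in replicates 3 to 5.

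A pair of further libraries had intermediate type I targets, and neither had Ifng above 0.446 FPKM. MWA+2DG replicate 2 had Isg15 at 47.2 FPKM, Ifit3 at 22.5 FPKM and Irf7 at 46.7 FPKM, with Cxcl9 at 14.6 FPKM, Cxcl10 at 4.53 FPKM and the lowest Ifng of all 10 libraries. MWA replicate 5 had Isg15 at 32.1 FPKM, Ifit3 at 12.1 FPKM and Irf7 at 74.4 FPKM, with Cxcl9 at 24.7 FPKM and Cxcl10 at 5.44 FPKM. Of the 8 nodes, MWA replicate 5 ranked highest and MWA+2DG replicate 2 next in both Cxcl9 and Cxcl10. In Cxcl11, MWA+2DG replicate 2 (0.242 FPKM) lay below MWA replicate 1 (0.254 FPKM). MWA+2DG replicate 1 had the lowest Isg15 (9.49 FPKM). Its Cxcl9, at 14.1 FPKM, was close to that of MWA+2DG replicate 2, and its Cxcl10 was at 2.38 FPKM. Outside the 2 libraries of highest ligands, Ifng varied as well, and did not exceed 0.579 FPKM. Over these 8 the highest value was 3.08 times the lowest for Ifng and 3.00 times for Cxcl9. Isg15, Ifit3 and Irf7 were chosen after their values were seen, and their relation to the ligand levels was not tested.

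**Figure D4:**
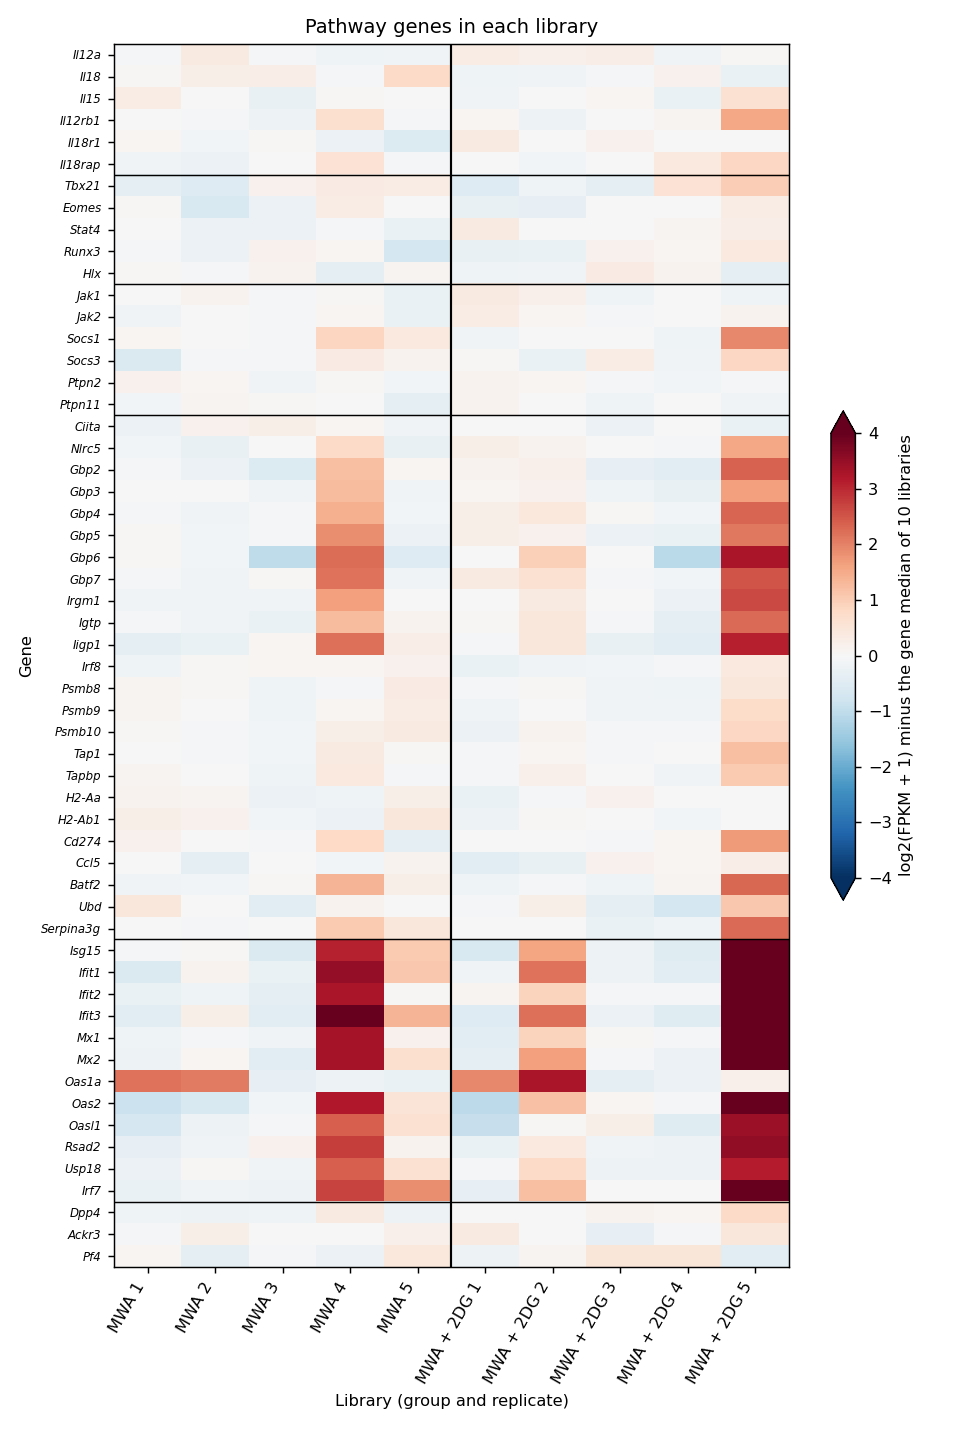
log2(FPKM + 1) minus the median of the gene over 10 libraries (color, red above and blue below, with values beyond 4 drawn in the end color) for 56 of the 57 tested pathway genes (rows, in 6 lists from inducers to other CXCR3 ligand biology, parted by lines) in each library (columns). MWA replicate 4 and MWA+2DG replicate 5 are red through the GTPase and type I rows, MWA+2DG replicate 2 and MWA replicate 5 are paler in the type I rows, and Oas1a is red in replicates 1 and 2 only.

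The genes related to the chemokines themselves gave no group call. Dpp4, which encodes a protease that trims CXCR3 ligands, had a log2 difference of 0.28 (exact permutation p = 0.183) and was at 12.5 and 17.2 FPKM in the 2 libraries and between 8.19 and 10.7 FPKM elsewhere. Without both libraries its log2 difference was 0.24 (exact permutation p = 0.0286, the smallest possible, adjusted p = 0.852 in limma). How many of all genes reached that p over these 8 libraries was not counted, and the 2 libraries were left out after the data were seen. Pf4, a platelet chemokine gene, and Ackr3, a scavenging receptor gene, had log2 differences of 0.14 and 0.01 (exact permutation p = 0.532 and p = 0.968).

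Genes most like the ligands over the 10 libraries were found by Pearson r with the mean z-score of Cxcl9, Cxcl10 and Cxcl11, used only to rank genes, since it rests on the 2 libraries that formed a cluster of their own. The 10 nearest, at r from 0.984 to 0.990, were Rsad2, Nt5c3, Trim30d, Iigp1, Trim30c, Gm4951, Oasl2, Tor3a, Ifi44 and Phf11d. Rsad2, which encodes viperin, was at 8.22 and 14.8 FPKM and at most 0.769 FPKM elsewhere. The 10 nearest to Ifng, at r from 0.967 to 0.985, were Fgl2, Ccl4, Arf4, Batf2, Slfn4, Cgas, Ccrl2, Aida, Atf3 and Ms4a4c. Ccl4, a chemokine gene of activated lymphocytes and myeloid cells, was at 5.95 and 10.9 FPKM and at most 2.14 FPKM elsewhere. Both rankings hold genes that passed the filter only through the 2 libraries. Rsad2, Trim30d and Batf2 are such genes, each below 1 FPKM in the other 8. At the other end of the ligand ranking, at r from -0.970 to -0.959, were Homer3, Rtl8c, Sytl1, Isca1 and Mob3a, each lowest in the 2 libraries. Over all tested genes, both libraries were below the other 8 for 1393 of 13334 (10.4%).

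Some markers of other cells moved with these values, though not all genes of a list did so. Of 17 marker lists, the summed level of 2 was above the other 8 libraries in both, and that of 1 was below. The NK cell list summed to 124 and 194 FPKM and to 31.0 to 90.5 FPKM in the other 8. Much of that sum was Gzma (55.5 and 87.6 FPKM) and Gzmb (27.9 and 54.2 FPKM). Of the 8 genes found, 5 were highest in both, among them Ncr1 (10.2 and 13.8 FPKM). Of the 6 that were tested, 4 were highest in both, beside 4.62% of all genes tested. Klrb1c, Klrd1 and Klrg1 were not highest in both. The monocyte list summed to 54.5 and 118 FPKM and to 11.99 to 37.5 FPKM elsewhere, and most of it was Ly6c2 (44.3 and 99.5 FPKM). Of its 4 genes, 3 were tested and these 3 were highest in both, beside 4.62% of all genes tested. Fcgr1, which is among them, passed the filter only through the 2 libraries. Cx3cr1 was not, at 0.530 and 0.299 FPKM against 0.353 to 0.702 FPKM in the other 8. The stromal list summed to 1282 and 1378 FPKM and to 1379 to 2162 FPKM elsewhere, so the gap was small. Most of that sum was Ccl21a (891 and 922 FPKM), and 1 of the 7 genes was lowest in both, beside 10.4% of all genes tested. Ccl19 went the other way in MWA+2DG replicate 5, at 196 FPKM against at most 164 FPKM in the other 8. No list had summed levels that parted the 2 treatment groups. The neutrophil list was at 10.8 to 88.0 FPKM in MWA and 1.38 to 15.4 FPKM in MWA+2DG. The part of any of these markers in the ligand levels was not tested.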

How the data were processed

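RNA-seq of lymph nodes was analysed for 10 mice, 5 per group, with groups taken from the labels. The authors deposited 1 table of FPKM per mouse. Per the labels, libraries were poly(A)-selected, strand-marked and carried molecular identifiers, and the submitters' processing notes name cutadapt 1.9, HISAT2 2.0.4, UMI-tools, StringTie 1.3.4d and build mm9, whereas the study's methods name fastp, HISAT2, StringTie and ballgown. FPKM is scaled by length and mapped reads, so depth is unknown and no counting interval can be given. Whole reads could not be recovered.

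Symbols matched 33541 of 33643 identifiers, and 57 shared symbols were summed. A gene entered the test if its mean reached 1 FPKM, and limma 3.58.1 (R 4.3.3) was run without covariates on log2(FPKM + 1), with Benjamini-Hochberg adjustment. This scale understates changes of low genes. On simulated data of this comparison (13334 genes), 174 of 200 genes given a log2 change of 1 were called, with 7 unchanged genes. The simulated noise was independent between genes and libraries, without the replicate sets or the 2 libraries that stood apart. That count therefore does not say what change could be called in the ligands, whose SE were 0.85 (Cxcl9), 0.99 (Cxcl10) and 0.82 (Cxcl11). Single genes and coefficients were tested by exact permutation, two-sided, in scipy 1.17.1. All 10 libraries had been planned for the coefficients, and 8 were used because 2 formed a cluster. The labels do not say more of the replicates than their numbers, so p-values measure the spread between these nodes. No pair of libraries shared more than 0.0178% of values.

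The members and lists were chosen with earlier results of these data known. Genes named are the members, the 3 of smallest P in each pathway list, and the 10 (and lowest 5) most like the ligands and the 10 most like Ifng. Others, such as Socs1, Gbp2, Irgm1, Cd274, Psmb8, Tap1, Tapbp, Isg15, Irf7, Ifit3, Oas1a, Il12rb1, Cd8a, Art3 and single cell markers, were chosen after their values were seen. Alternatives were other pseudocounts, filters, scalings, tests, the replicate number as a block, the replicate set as a term, each library left out and, added after seeing the data, both high libraries left out. A result of 1 gene of the lists is not reported here.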

Additional observations from a re-analysis of the deposited data

Results flagged for a closer look

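Within each group of 5, the highest or lowest library of each axis gene and each pathway gene named by rank was set against the nearest other library, and the gap was divided by the range of the group. Of 52 groups examined (26 genes), 22 had a ratio above 0.71, the 95% critical value of Dixon's test, where chance gives about 1 in 20. MWA+2DG replicate 5 made 11 of these, MWA replicate 4 made 9 and other libraries made 2. The genes are not independent of each other, since most of them move together in those libraries. The 1 in 20 holds for normal values, whereas these ratios were taken on FPKM without log. The excess over it is therefore not a measured one.

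Among the axis genes, MWA replicate 4 was apart at the high end for Ifng (ratio 0.812), Cxcl9 (0.846), Cxcl10 (0.942) and Cxcl11 (0.951). MWA+2DG replicate 5 was apart at the high end for Ifng (0.909), Irf1 (0.805), Cxcl9 (0.965), Cxcl10 (0.972) and Cxcl11 (0.995), and at the low end for Ifngr2 (0.767). MWA+2DG replicate 4 was apart at the high end for Cxcr3 (0.727).

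Among the pathway genes, the ratios in MWA replicate 4 and MWA+2DG replicate 5 were 0.796 and 0.885 for Nlrc5, 0.972 and 0.946 for Ifit2, 0.900 and 0.914 for Oas2, 0.865 and 0.811 for Ifit1, and 0.952 and 0.844 for Dpp4. MWA replicate 2 was apart at the high end of its group for Il12a (0.787), at 7.10 FPKM.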

How the results depend on the processing

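No axis gene passed at an adjusted p below 0.05 in limma under any setting tried, and the unadjusted p of 1 of 157 alternative values for single members fell below 0.05 (Cxcr3 without MWA replicate 5, at 0.39). The range over settings that leave out 1 library was 0.00 to 0.10 for Ifngr1, -0.21 to -0.04 for Ifngr2 and 0.14 to 0.39 for Cxcr3, each with 1 sign, and -0.28 to 0.31 for Ifng, -0.0515 to 0.34 for Irf1, -0.84 to 0.48 for Cxcl9, -0.96 to 0.63 for Cxcl10 and -0.65 to 0.66 for Cxcl11, each turning sign. Ifng and Cxcl11 were also negative without both MWA replicate 4 and MWA+2DG replicate 5 (-0.06 and -0.10). Cxcl9 was at 0.00142 after rescaling to 1000000, and Cxcl11 at -0.0429 with a pseudocount of 0.1. The count by the unadjusted rule, 376, was 645 after rescaling, which tested 16550 genes, and 230 with a filter of 5 FPKM, which tested 8052. Leaving out 1 library gave 283 to 512 genes by that rule, 0 to 1 at the adjusted threshold and 0 to 3 pathway genes, where the main count was 2 and rescaling gave 1. Leaving out MWA+2DG replicate 1 took the pathway count to 0, and MWA replicates 2 and 5 and MWA+2DG replicates 2, 3 and 5 each took it to 1 when left out. The cause of these changes was not tested. For Ifng with the ligands, 0 of 48 alternative coefficients had a p below 0.05, and Cxcl11 was at -0.0207 after subtracting the means of the replicate sets. The coefficient within replicates 3 to 5 alone was not computed because 4 libraries remained. Filters do not alter the value of a single member, and Ifng, below the filter, has no value in limma-trend or with the block or set term. With the replicate number as a block, 449 genes passed the unadjusted rule and 0 the adjusted threshold. The block left Cxcr3 at 0.29 and Cxcl9 at -0.05. Deviations of same-numbered libraries correlated between 0.03 and 0.50, not all above 0.1, and 1 of 5 MWA libraries correlated best with its own number, so the numbers were not taken as pairs. Depth is unknown, which limits what can be said of Ifng and Cxcl11 below 1 FPKM.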

Other observations

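Since type I interferon targets were high where the ligands were, the type I interferon genes themselves were looked up after those values were seen. Of 10 such genes in the files (Ifnb1, Ifnab and 8 Ifna genes), 7 were above 0 in MWA+2DG replicate 5 and 5 in MWA replicate 4, beside 1 each in MWA replicates 1 and 2 and 0 in the other 6 libraries. The highest value was 0.358 FPKM (Ifna5, MWA replicate 4). Ifnb1 was at 0.0719 FPKM in MWA replicate 4 and 0.121 FPKM in MWA+2DG replicate 5 and listed at 0 elsewhere. At an unknown depth, values this low cannot be told from a few reads.

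The receptor genes of type I interferon lay in a narrow range. Ifnar1 lay between 16.1 and 20.9 FPKM and Ifnar2 between 17.8 and 21.4 FPKM over the 10 libraries.

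Marco, a scavenger receptor gene of lymph node macrophages, was lowest in the 2 libraries of high ligands, at 9.50 FPKM in MWA replicate 4 and 2.87 FPKM in MWA+2DG replicate 5, with 10.97 to 52.0 FPKM in the other 8. Of the 9 genes of the macrophage list, Marco was the only 1 lowest in both, beside 10.4% of all genes tested. Mertk, of the same list, was highest in both, at 2.77 and 3.15 FPKM against at most 2.42 FPKM. The list summed to 198 and 240 FPKM there, within the 176 to 295 FPKM of the other 8. Marco was chosen after its values were seen.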
